A study of Mus musculus with 18 samples.

Results

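The miR-26 family of mouse consists of miR-26a-5p (mmu-miR-26a-5p) and miR-26b-5p (mmu-miR-26b-5p), the abundant 5p arms of 3 hairpins that lie in introns of the Ctdsp phosphatase genes. Both were taken by exact name from a table of small RNA reads of mouse kidney, and copies of one name were counted once, which gave 2 of 735 mouse names. The table held 18 libraries in 3 groups of 6. Germacrone-treated libraries came from kidneys of C57BL/KsJ mice with diabetic nephropathy (DN) dosed with the plant sesquiterpene germacrone at 10 mg/kg/day. DN libraries came from C57BL/KsJ mice given 0.9% saline, and control libraries from C57BL/6J mice given 0.9% saline. Control mice were of another strain than the rest, and the effects of strain and of disease cannot be told apart against control. The labels state no age and no cause of the diabetes. They do not tie each library to an animal of its own, so the spread behind the p-values may be technical.

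A miRNA guides Argonaute to messenger RNAs through its seed, bases 2 to 8, and lowers their stability and translation. miR-26 is widely expressed, and its reported targets include Ezh2, Smad1 and Ctgf. The host genes encode small C-terminal domain phosphatases, which are co-expressed with the miRNAs in their introns and share a role in restraining proliferation. In kidney, miR-26a has been studied in podocytes, where it was reported to dampen TGF-β-driven matrix production and to be reduced in diabetic glomeruli.

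The 5p sequences are shown because the 2 members have the same seed, in capitals, but come from different hairpins and differ outside the seed (RefSeq, GRCm38.p6).
miR-26a-5p: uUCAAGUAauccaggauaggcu
miR-26b-5p: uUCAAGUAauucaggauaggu
Counted from 1 at the 5′ end, with the base of miR-26a-5p first, the differences were C11U and C21U, and miR-26a-5p was 22 bases long against 21 for miR-26b-5p. The first 10 bases were identical. G and C made up 40.9% of the bases of miR-26a-5p and 33.3% of those of miR-26b-5p, with a median of 47.7% over the 372 of 441 tested mouse names that had a sequence. Of the 1679 mouse mature miRNAs in the sequence table, these 2 alone carried this seed.

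The 3 hairpins are shown because 2 of them give the same miR-26a-5p, so that only the 3p arm tells them apart; capitals mark both mature arms.
Mir26a-1: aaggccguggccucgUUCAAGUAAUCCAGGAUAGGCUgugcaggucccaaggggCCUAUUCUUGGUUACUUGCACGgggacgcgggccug
Mir26a-2: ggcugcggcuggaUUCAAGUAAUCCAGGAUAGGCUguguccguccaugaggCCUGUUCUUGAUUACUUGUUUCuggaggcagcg
Mir26b: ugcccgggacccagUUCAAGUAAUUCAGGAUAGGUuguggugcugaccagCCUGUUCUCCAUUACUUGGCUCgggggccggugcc
Mir26a-1 lies at chr9:119031796-119031885 in intron 5 of Ctdspl, Mir26a-2 at chr10:126995530-126995613 in intron 5 of Ctdsp2, and Mir26b at chr1:74394310-74394394 in intron 4 of Ctdsp1 (GRCm38, intron numbers of the GENCODE M21 transcripts Ctdspl-201, Ctdsp2-202 and Ctdsp1-201). The hairpin lies in an intron of 2 of 2 coding transcripts of Ctdspl, and of 1 of 2 for Ctdsp2 and for Ctdsp1. Each hairpin lies on the plus strand, the strand of its host. The coordinates are those of the reference, since the sources used here do not name the build of the deposited table.

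Total counts were 3657879 to 5972069 in treated, 3645173 to 7239343 in DN and 3700672 to 6654035 in control libraries. The 8 kidney epithelial marker miRNAs, among them miR-192-5p and miR-30a-5p, were detected in each library and summed to 170665 to 234516 CPM (edgeR's library-scaled counts, 1 entry per name) in treated, 61773 to 210444 in DN and 116607 to 178899.6 in control kidneys. DN 2 had the lowest of these sums, and its 7 leukocyte markers summed to 25946 CPM, against at most 9117 CPM in treated and 4225 CPM in control libraries. DN 2, DN 3 and control 2 had been left out together in earlier results of these data, and fold changes were also computed without them.

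Both members passed the filter on low counts. miR-26a-5p stood on 2 entries with identical values, and miR-26b-5p on 1. All 18 values of miR-26a-5p were multiples of 1/6 of a read and all 18 of miR-26b-5p multiples of 1/3 (tolerance 0.001 of a read). Of the values above 0 of the 32 mouse names on 2 identical entries 36.8% were whole, against 88.8% for the 682 names on 1 entry. Where reads that matched several hairpins were divided among them, the full level of miR-26a-5p would be the sum of its 2 entries. The sources used here do not state how shared reads were assigned, so levels below are those of 1 entry.

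miR-26a-5p was among the most abundant miRNAs of these kidneys, and its level differed little between libraries. It ranked between 3 and 12 by count among mouse names, and 1 entry held 2.21% to 2.90% of the named counts. In treated kidneys its lowest, median and highest levels were 23274 CPM in treated 6, 26009 and 29694 CPM in treated 5. In DN kidneys they were 20240.1 CPM in DN 2, 23829.6 and 27223 CPM in DN 4. In control kidneys they were 24330.4 CPM in control 5, 25066 and 26538 CPM in control 1. The DN libraries fell on both sides of the control range: DN 1, DN 2 and DN 3, at 21702, 20240.1 and 20751 CPM, lay below each control library, and DN 4 lay above each of them. The groups overlapped in every comparison. DN 2 was also the library with few epithelial and many leukocyte miRNAs, and the part of these cell types in its low level was not tested.

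miR-26b-5p was present at a lower level and ranked between 18 and 33, with 0.696% to 1.59% of the named counts. In treated kidneys its lowest, median and highest levels were 11223 CPM in treated 5, 14237 and 15951 CPM in treated 1. In DN kidneys they were 8441 CPM in DN 2, 14103 and 15402 CPM in DN 5. In control kidneys they were 6282 CPM in control 2, 14074 and 15261 CPM in control 4. The medians of the groups lay close together, and the spread came from a few low libraries: DN 2, DN 3 at 8474 CPM and control 2 stood below the other 15, which lay between 11223 and 15951 CPM. With counts of at least 38776 per library for miR-26b-5p and 80739.17 for miR-26a-5p, counting error was at most 0.51% and 0.35%.

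**Figure D1:**
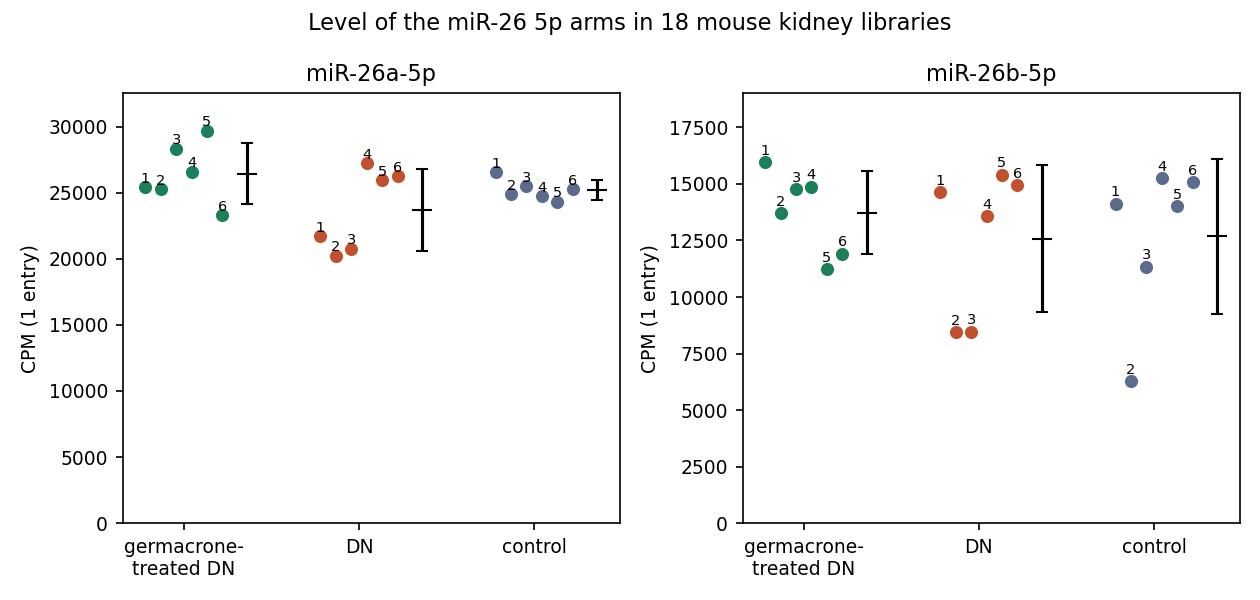
Level of miR-26a-5p (left) and miR-26b-5p (right) in CPM of 1 entry, in germacrone-treated DN, DN and control kidneys; each point is 1 library with its number, and the bar beside each group is the mean ± SD (n = 6). The control libraries of miR-26a-5p lie between 24330.4 and 26538 CPM, whereas DN 2, DN 3 and control 2 are low for miR-26b-5p.

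Treated against DN asked whether germacrone changes the family in diabetic kidney. miR-26a-5p averaged 26428 ± 2309 CPM in treated and 23685 ± 3118 CPM in DN kidneys (SD, n = 6 each). The log2 fold change (log2FC) was 0.16 (SE 0.108, 95% interval −0.07 to 0.38, adjusted p = 0.800 by edgeR's quasi-likelihood test over 619 entries), and 5 of 6 treated libraries lay above the DN median. miR-26b-5p averaged 13738 ± 1841 CPM in treated and 12578 ± 3248 CPM in DN kidneys, with a log2FC of 0.13 (SE 0.208, interval −0.31 to 0.56, adjusted p = 0.896) and 3 of 6 treated libraries above the DN median. Neither of the 2 members passed, and neither did any of the 619 entries (0%), with 23 (3.72%) at an unadjusted p under 0.05. DESeq2 called 0, and so did limma-voom with sample weights, the only form of limma-voom used here. These weights let libraries count unequally. Without DN 2, DN 3 and control 2 the log2FC of miR-26b-5p was −0.10, against 0.057 for miR-26a-5p.

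DN against control asked whether the family differs in diabetic nephropathy. miR-26a-5p averaged 23685 ± 3118 CPM in DN and 25201 ± 772 CPM in control kidneys, with a log2FC of −0.09 (SE 0.108, interval −0.32 to 0.14, adjusted p = 0.869 by edgeR). The control median was exceeded in 3 of 6 DN libraries. In fold terms this interval ran from 0.804 to 1.10. Without DN 1 the log2FC was 0.027, and without DN 2, DN 3 and control 2 it was −0.02. miR-26b-5p averaged 12578 ± 3248 CPM in DN and 12684 ± 3437 CPM in control kidneys, with a log2FC of −0.012 (SE 0.208, interval −0.45 to 0.42, adjusted p = 0.996) and 3 of 6 above the control median. Neither member passed. Of the 619 entries 0 passed (0%), with 47 (7.59%) at an unadjusted p under 0.05. DESeq2 called 4 and limma-voom with sample weights 91, none of them a member. The sign of the miR-26b-5p value changed under 20 of 30 alternative settings, so no direction is given for it.

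Treated against control asked how far treated diabetic kidneys differ from control kidneys. miR-26a-5p averaged 26428 ± 2309 CPM in treated and 25201 ± 772 CPM in control kidneys, with a log2FC of 0.069 (SE 0.108, interval −0.16 to 0.29, adjusted p = 0.752 by edgeR) and 5 of 6 treated libraries above the control median. miR-26b-5p averaged 13738 ± 1841 CPM in treated and 12684 ± 3437 CPM in control kidneys, with a log2FC of 0.12 (SE 0.208, interval −0.32 to 0.55, adjusted p = 0.771) and 3 of 6 above the control median. Both values were negative when libraries were scaled by size only, at −0.14 and −0.084, a scaling that placed the median of all entries at −0.203. Relative to that median they were 0.059 and 0.12, against 0.072 and 0.12 with TMM factors. Here too 0 of 619 entries (0%) passed, with 121 (19.5%) at an unadjusted p under 0.05. DESeq2 called 18 and limma-voom with sample weights 106, none of them a member. Groups did not overlap for 32 entries (5.17%), and for 0 of the 2 members. The 3 comparisons share libraries, so their values are not independent of each other.

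**Figure D2:**
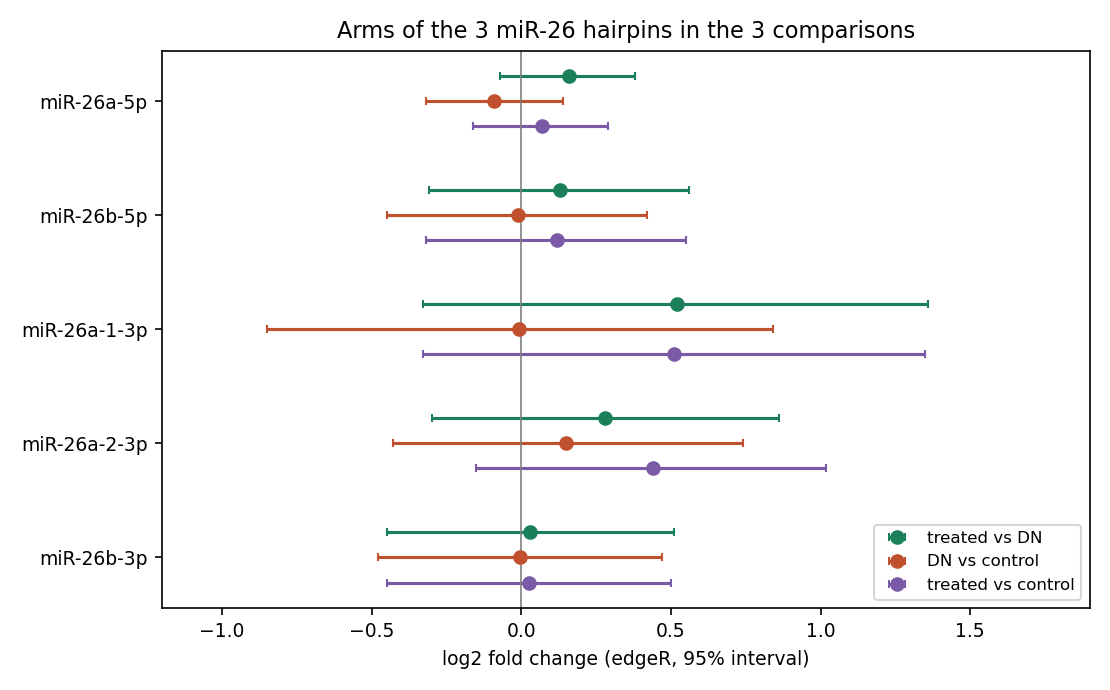
Log2 fold change with its 95% interval from the edgeR fit for the 5 arms of the 3 hairpins (rows), in treated against DN, DN against control and treated against control (colours). Each interval includes 0, and those of miR-26a-5p are the narrowest, with an SE of 0.108 against 0.402 to 0.405 for miR-26a-1-3p.

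The spread of miR-26a-5p between libraries was small beside that of other miRNAs. None of the 505 tested names had a smaller SE in any comparison, where the median SE over all entries was 0.339 to 0.340, and 71 had a smaller SE than miR-26b-5p. The coefficient of variation of miR-26a-5p (CV, the SD as a percent of the mean) over all 18 libraries was 9.70%, the lowest of the 74 mouse names at a mean of 1000 CPM or more, whose median CV was 26.5%. Next came miR-23b-3p at 11.2%, miR-29a-3p at 13.3%, miR-25-3p at 13.5% and miR-24-3p at 13.7%. The rank of miR-26a-5p held with library size only (7.55%), the authors' normalized signal (7.82%) and median-of-ratios scaling (8.79%). It also held within groups, at a pooled CV of 9.29%. Among the 189 names at 100 CPM or more it was lowest with library size only and with the authors' signal, and second with the other 2 scalings. By group its CV was 8.74% in treated, 13.2% in DN and 3.06% in control kidneys, and this difference in spread was not tested.

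miR-26b-5p had a CV of 21.6%, the 25th lowest of the 74 names, and 10.5% over the 15 libraries other than DN 2, DN 3 and control 2, where miR-26a-5p had 7.51%. Of 10 widely expressed miRNAs often used as references in small RNA assays, 7 reached 1000 CPM, and their CVs ran from 13.5% for miR-25-3p to 30.9% for miR-16-5p. None of these 10 passed in any comparison by edgeR, with a median log2FC of −0.052 in treated against DN, −0.08 in DN against control and −0.10 in treated against control, beside −0.054, 0.075 and −0.0035 over all entries. At an unadjusted p under 0.05, 2 of them were lower in treated than in control kidneys, let-7a-5p (log2FC −0.47, adjusted p = 0.186 by edgeR) and miR-423-5p (−0.85, adjusted p = 0.251). The let-7a-5p value is that of its first entry, whose values equal those of let-7c-5p, and the second, unlike entry had a log2FC of −0.35 (unadjusted p = 0.0575, adjusted p = 0.265 by edgeR). No threshold was applied to the CVs, which describe these libraries, and the cutoffs of 1000 and 100 CPM were chosen after the values were seen.

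**Figure D3:**
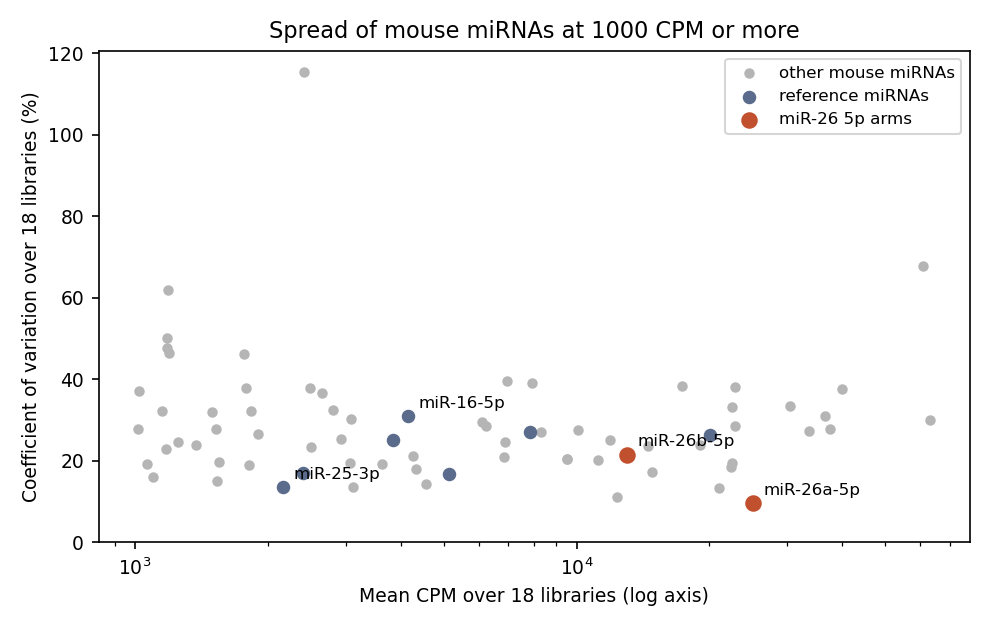
Coefficient of variation over all 18 libraries (percent) against mean level (CPM, log axis) for the 74 mouse miRNAs at 1000 CPM or more; the miR-26 5p arms and 7 reference miRNAs are coloured. miR-26a-5p is the lowest point at 9.70%, and miR-26b-5p lies at 21.6%.

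The count of miR-26a-5p over that of miR-26b-5p does not depend on how libraries are scaled. With 1 entry of miR-26a-5p, the ratio was 1.59 in treated 1, the lowest, 1.88 at the median and 2.65 in treated 5, the highest. In DN kidneys it was 1.48 in DN 1, 1.88 at the median and 2.45 in DN 3. In control kidneys it was 1.62 in control 4, 1.81 at the median and 3.96 in control 2. The groups overlapped and their medians were close, whereas treated 5 and control 2 stood apart from the rest of their groups. In DN kidneys the highest ratio, in DN 3, lay close to that of DN 2 at 2.40. Counting both entries of miR-26a-5p doubles these ratios and leaves the differences between their log2 values as they are.

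The mean log2 ratio was 0.951 ± 0.245 in treated, 0.949 ± 0.29 in DN and 1.05 ± 0.488 in control kidneys (SD, n = 6 each). It differed by 0.002 between treated and DN kidneys (exact 2-sided permutation p = 0.991), by −0.10 between DN and control (p = 0.721) and by −0.099 between treated and control (p = 0.721), and each p was 0.991 after Benjamini-Hochberg adjustment over the 3 comparisons. Without control 2 the 2 differences against control had the opposite sign, at 0.086 and 0.088.

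**Figure D4:**
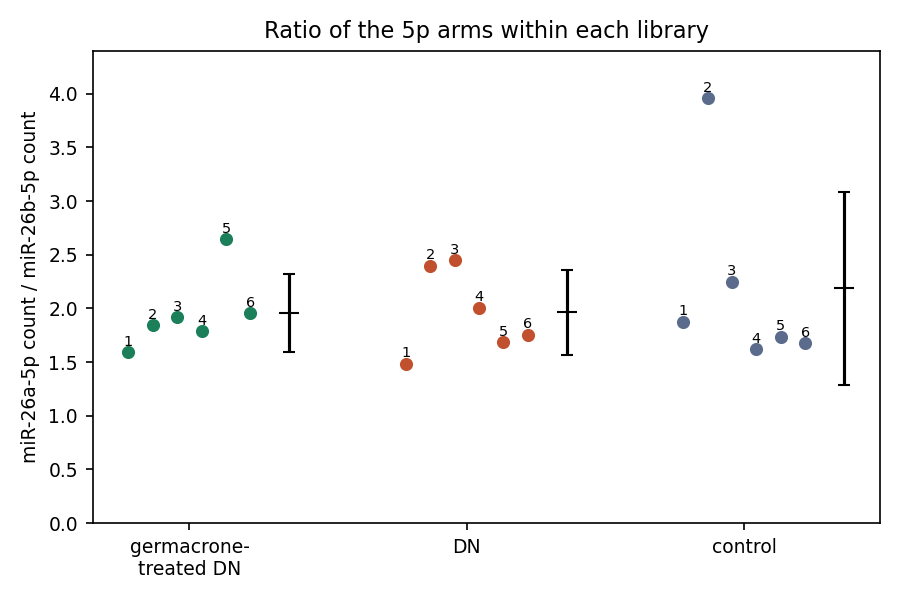
Ratio of the miR-26a-5p count (1 entry) to the miR-26b-5p count in each library of the 3 groups; points are libraries with their numbers, and bars are the mean ± SD (n = 6). Treated 5 reaches 2.65 and control 2 reaches 3.96, whereas the group medians lie between 1.81 and 1.88.

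The 3p arms, the strands that are mostly discarded, were rare and were all tested. miR-26b-3p had 2074 counts over all libraries, so that its 5p arm was 532 times as abundant. miR-26a-2-3p had 1054 counts and miR-26a-1-3p 167, a ratio of 6.31. Both entries of miR-26a-5p together had between 2214 times, in treated 1, and 6789 times, in control 2, the counts of these 2 arms. Per library, miR-26a-1-3p rested on 5 to 14 counts, where counting error alone was 27% to 45%.

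For miR-26a-2-3p, of the Ctdsp2 hairpin, the mean was 14.6 ± 3.42 CPM in treated, 12 ± 4.15 CPM in DN and 10.8 ± 2.87 CPM in control kidneys. Its log2FC was 0.28 in treated against DN (adjusted p = 0.827 by edgeR), 0.15 in DN against control (0.930) and 0.44 in treated against control (SE 0.278, interval −0.15 to 1.02, 0.397). miR-26a-1-3p, of the Ctdspl hairpin, had a log2FC of 0.52, −0.0066 and 0.51 in the same order, with an SE of 0.402 to 0.405. For miR-26b-3p, of the Ctdsp1 hairpin, the mean was 24.5 ± 3.92 CPM in treated, 24.0 ± 7.30 CPM in DN and 24.1 ± 4.06 CPM in control kidneys, and its log2FC was between −0.0042 and 0.030. None of the 3 passed.

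The 4 lowest libraries of the Ctdsp1 hairpin were the same for both arms. Treated 5, DN 2, DN 3 and control 2 had the 4 lowest levels of miR-26b-5p and also of miR-26b-3p, the 3p arm at 19.3 CPM in treated 5, 13.5 in DN 2, 15.7 in DN 3 and 17.9 in control 2. For miR-26a-2-3p 3 of these 4 were among its 4 lowest libraries, with DN 2 at 6.4 and control 2 at 6.65 CPM, and for miR-26a-5p 2 of them, DN 2 and DN 3. For miR-26b-3p, control 4 came next at 20.0 CPM, close to treated 5 beside a counting error of 7.3% to 12% per library. Control 4 had the highest miR-26b-5p level of the control libraries. The count of miR-26b-5p over that of miR-26b-3p ran from 351 in control 2 to 762 in control 4. Over 18 libraries, log2 CPM of miR-26b-5p correlated with miR-26b-3p at r = 0.79 and with miR-26a-2-3p at r = 0.84. miR-26a-5p correlated with miR-26a-2-3p at r = 0.49 and with miR-26a-1-3p at r = 0.37. These points share library, scaling and depth, and the correlations are descriptions.

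The 2 members, which share their seed, did not follow each other closely across libraries. Their log2 CPM correlated at r = 0.42 over 18 libraries, and 79 mouse names were closer to miR-26a-5p than miR-26b-5p was. Without DN 2 and DN 3, which were low for both members, r was 0.019, a value that depends on which libraries are left out. The 5 most like miR-26a-5p were miR-29a-3p, which restrains collagen genes (r = 0.82), miR-30e-5p (0.81) and miR-30a-5p (0.80) of a family abundant in podocytes and tubules, miR-125b-2-3p (0.77) and miR-10a-5p of the HoxB locus (0.76). With group means subtracted, miR-10a-5p (0.84), miR-10b-5p (0.82), miR-30e-5p (0.82), miR-29a-3p (0.79) and miR-30a-5p (0.78) came first. Without DN 2 and DN 3, the correlation with miR-29a-3p was 0.63.

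The 5 most like miR-26b-5p were miR-126a-5p of endothelial cells (r = 0.98), miR-190a-3p (0.95), let-7a-1-3p (0.94 for each of its 2 unlike entries), miR-190a-5p (0.93) and miR-32-5p (0.92). Without control 2 and DN 3, the correlation with miR-126a-5p was 0.96. The other arm of that hairpin, miR-126a-3p, correlated with miR-26b-5p at 0.83. The 2 endothelial arms summed to 16219 CPM or more in treated kidneys, against a lowest sum of 8007 CPM in DN 2 among DN and of 9172 CPM in control 2 among control libraries. The 2 arms were not equally low. In control 2, miR-126a-5p was at 1325 CPM against a control median of 6963 CPM. In the same library miR-126a-3p was at 7847 CPM against a control median of 12427 CPM. The cause of this difference between the arms was not tested. Fewer cells of a type and less RNA per cell cannot be told apart in whole kidney.

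The miRNAs most like miR-26b-5p that had a sequence held 22.7% to 36.4% G and C, whereas the most opposed were miR-676-3p (r = −0.93, 57.1%), miR-125b-5p (−0.87, 50%), miR-125a-3p (−0.86, 59.1%), miR-331-3p (−0.86, 61.9%) and miR-574-3p (−0.85, 59.1%). Over the 159 names at 100 CPM or more with a sequence, the 40 most like miR-26b-5p had a median of 40.9% G and C and the 39 least like 54.5%, against 44.5% and 50% for miR-26a-5p.

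As a per-library measure, the mean log2 deviation of 18 miRNAs with at most 35% G and C was taken minus that of 26 miRNAs with at least 55%, members left out. This difference was −0.309 in treated 5, −1.29 in DN 3, −0.14 in DN 2, −1.94 in control 2 and −0.661 in control 3, the 5 libraries with the highest ratios. The other 13 lay between −0.283 and 0.627 and overlapped with them, since control 5, at −0.283, lay below DN 2 with a ratio of 1.74. The log2 ratio of miR-26a-5p to miR-26b-5p correlated with it at r = −0.87 over 18 libraries and −0.70 without control 2 and DN 3. For the level of miR-26b-5p r was 0.89 and 0.68, and for miR-26a-5p 0.26 and 0.039. The limits of 35% and 55% were chosen after the data were seen, and the part of base composition in the levels of miR-26b-5p was not tested.

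**Figure D5:**
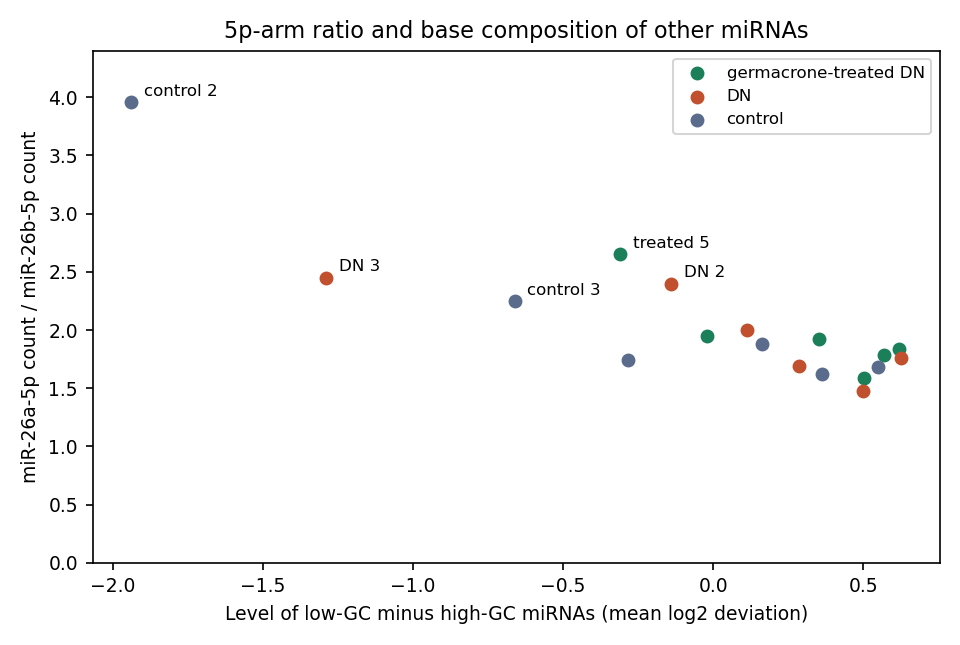
Ratio of miR-26a-5p to miR-26b-5p counts in each library against the level of 18 low-GC minus 26 high-GC miRNAs (difference of mean log2 deviations); colours are the groups, and the 5 libraries with the highest ratios are named. DN 3 lies at −1.29 with a ratio of 2.45 and control 2 at −1.94 with 3.96, control 5 lies at −0.283 with 1.74, and each group has libraries at the right with ratios below 2.

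Of 5 names listed for miR-101 and miR-138, which are reported to target the histone methyltransferase Ezh2 as miR-26 is, 3 mouse names were tested. The other 2, miR-101a-3p and miR-101b-3p, were not among the mouse names of these data. Of the tested names, miR-101a-5p is the other arm of the miR-101a-3p hairpin and does not stand for miR-101a-3p. Both miR-101c and miR-138-5p stood on 2 entries with unlike values. The first entry of miR-101c had the same values as an entry named for rat miR-101b-3p, so its level cannot be given to miR-101c alone. It had 9340.1 ± 1911 CPM in treated, 7890.3 ± 4075 CPM in DN and 6560.3 ± 2764 CPM in control kidneys, with a log2FC of 0.24 in treated against DN, 0.27 in DN against control and 0.51 in treated against control. The second entry averaged 35.1 CPM over all libraries, with a log2FC of 0.25, 0.14 and 0.39. Like miR-26b-5p, the first entry was low in DN 3 at 2341 CPM and in control 2 at 2641 CPM.

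The first entry of miR-138-5p was at 7.87 ± 1.16 CPM in treated, 12 ± 3.69 CPM in DN and 7.91 ± 1.47 CPM in control kidneys. Over all libraries it was the most opposed to miR-26a-5p (r = −0.76). With group means subtracted it came after miR-132-3p (−0.76) and miR-330-5p (−0.71), at −0.71. Its log2FC was −0.60 in treated against DN (adjusted p = 0.800 by edgeR, unadjusted p = 0.0277), 0.59 in DN against control (0.529, unadjusted p = 0.0287) and −0.0062 in treated against control (0.989). The second entry of miR-138-5p averaged 3.36 CPM over all libraries. Its log2FC was −0.19, 0.087 and −0.11 (unadjusted p = 0.662, 0.844 and 0.809 by edgeR), and its correlation with miR-26a-5p was −0.36. miR-101a-5p averaged 16.2 ± 6.56 CPM in treated, 13.1 ± 7.44 CPM in DN and 13 ± 9.23 CPM in control kidneys. None of the 3 names passed. Their median log2FC with the first entries was 0.24 in treated against DN, 0.27 in DN against control and 0.33 in treated against control. With the second entries it was 0.25, 0.087 and 0.33, against −0.054, 0.075 and −0.0035 over all entries. The median of 0.33 is the value of miR-101a-5p itself.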

How the data were processed

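Small RNA of mouse kidney was counted in 18 libraries. Per the labels, RNA was extracted with Trizol, libraries were made with a TruSeq Small RNA kit and reads were filtered with ACGT101-miR. The submitters' processing notes name Trimmomatic 0.32, BWA, SAMtools and edgeR; the sources used here name neither the genome build nor the miRBase release. The deposited raw columns hold estimated counts, rounded here to whole numbers. The deposited normalized columns hold a signal, the raw value times 1 factor per library.

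Of 1534 entries, 350 without a name were left out (0.0136% to 0.148% of a library's counts). All 18 libraries were fitted together with edgeR 4.0.16 in R 4.3.3, with group as the only factor, filterByExpr (minimum count 10, minimum total 15, 619 entries kept), TMM factors and the legacy quasi-likelihood test, with Benjamini-Hochberg adjustment over 619 entries and a threshold of 0.05. Standard errors used the working weights and posterior quasi-dispersion. The fit was also run on simulated data, with a smaller spread than the common spread here and larger changes than those of the members. That run does not show how the fit performs on changes as small as theirs. CPM used TMM factors, and log2 CPM a prior count of 2. Ratios were compared by exact permutation over 924 splits. Alternatives were other scalings, filters, DESeq2 1.42.0, limma-voom with sample weights (limma 3.58.1), a replicate block, summed or single copies, and libraries left out. The authors' factors were added after seeing the data. Members, lists and the naming rule (5p arms, 3p arms, listed miRNAs and the 5 names most correlated with each member) were chosen with earlier results of these data known. Most opposed miRNAs were added later. A name was represented by its first tested entry; 4 of 441 tested mouse names had unlike entries, and both are given where one is described. Sequences are from RefSeq and host introns from GENCODE M21.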

Additional observations from a re-analysis of the deposited data

Results flagged for a closer look

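The ratio of miR-26a-5p to miR-26b-5p was 2.646 in treated 5, far above the other treated libraries, and 3.958 in control 2, far above the other control libraries. In both, the gap to the nearest library over the range of the raw ratio exceeded Dixon's 95% critical value for groups of 6. That value assumes a normal distribution. Only the highest library was examined, in 3 groups and on the raw and the log2 scale, so no chance rate is given. On the log2 scale the gap over the range was 0.597 in treated kidneys, below the critical value, and 0.633 in control kidneys, above it, so treated 5 exceeded it on the raw ratio only. In treated 5 miR-26a-5p was at 29694 CPM and miR-26b-5p at 11223 CPM, the highest and the lowest level of their group. In control 2 miR-26a-5p was at 24861 CPM and miR-26b-5p at 6282 CPM, the lowest of all libraries.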

How the results depend on the processing

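Neither member passed under any of the 30 alternatives in any comparison. In treated against DN, the log2FC of miR-26a-5p kept its sign throughout (0.029 to 0.18), and that of miR-26b-5p was −0.028 with limma-voom and −0.10 without DN 2, DN 3 and control 2. In DN against control, miR-26a-5p was 0.023 with limma-voom. miR-26b-5p was 0.020 without a filter, 0.046 with only the 2 groups, 0.064 with identical copies counted once, 0.12 with limma-voom and 0.050 without the 3 libraries. In treated against control, miR-26a-5p was −0.14 and miR-26b-5p −0.084 with library size only, and miR-26b-5p was −0.05 and the log2 ratio 0.088 without the 3 libraries. Leaving out 1 library at a time gave −0.089 to 0.027 for miR-26a-5p and −0.074 to 0.12 for miR-26b-5p in DN against control, and −0.089 to 0.071, −0.17 to 0.086 and −0.19 to 0.088 for the log2 ratio in treated against DN, DN against control and treated against control. In treated against DN these ranges were 0.072 to 0.18 for miR-26a-5p and 0.015 to 0.17 for miR-26b-5p, and in treated against control 0.052 to 0.12 and 0.023 to 0.21. The cause of these reversals was not tested.

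Calls in DN against control numbered 0 with edgeR, 2 with a filter of 10 CPM in 6 libraries, 4 with DESeq2, 91 with limma-voom, 51 without the 3 libraries and 0 to 6 with 1 library left out (1 without control 2, 6 without DN 2 and 6 without DN 3). In treated against control they numbered 0, 56 with only the 2 groups, 18 with DESeq2, 106 with limma-voom, 50 without the 3 libraries and 0 to 7 with 1 left out (7 without DN 2 and 3 without DN 3). In treated against DN every setting gave 0. Library size only moved the median log2FC of all entries to −0.194 in treated against DN and −0.203 in treated against control.

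With the replicate block the log2FC was 0.16, −0.097 and 0.065 for miR-26a-5p and 0.18, −0.0022 and 0.18 for miR-26b-5p, with 0 calls. Same-numbered libraries did not deviate together (median r −0.00528, 3 of 18 pairs over 0.1, against a median r of 0.0444 for different numbers). Libraries can be paired without deviating together, so this does not show what a shared number means, and the labels do not say.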
